A study of Mus musculus with 8 samples.

Results

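The 10 genes described here encode the atypical chemokine receptor ACKR3, the signalling receptors and receptor modifiers that share its ligands, and those ligands. They are Ackr3, Cxcr4, Calcrl, Ramp1, Ramp2, Ramp3, Cxcl12, Cxcl11, Mif and Adm. They were taken by symbol from the gene-level tables, which hold 55487 genes, and all 10 were found. The samples are 8 bulk RNA-seq libraries of 4 mouse cell lines of lung squamous cell carcinoma (LUSC), a tumour of keratin-rich airway-type epithelium, with 2 libraries of each line. The lines came from genetically engineered mice, and the stated question is the loss of ACKR3. The PLA family comprises the lines PLA and PLA4, and the PL family PL1 and PL12. The labels leave these letters unexplained and give no allele, Cre driver, clone, passage, treatment, age or time for any line. Each line is 1 line of its kind, so a difference between PLA and PL lines and a difference between individual lines can be separated only by 2 lines against 2. No label says whether paired libraries are separate cultures, and p-values over libraries therefore measure a spread that may be technical. Libraries held 48857960 to 142458281 estimated counts.

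ACKR3 is a scavenger. It binds the chemokines CXCL12 and CXCL11 and the peptide adrenomedullin, takes them into the cell through arrestins and endocytosis, and does not couple to G proteins in the classical way. CXCR4 is the signalling receptor for CXCL12 and also binds the cytokine MIF. Adrenomedullin signals through CALCRL, a receptor that reaches the surface and gains its ligand preference only together with a RAMP: RAMP1 makes a receptor for the peptide CGRP, and RAMP2 or RAMP3 make receptors for adrenomedullin.

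The sequences below show the part of Ackr3 on which the transcript results turn. GENCODE release 21 (GRCm38) lists 2 Ackr3 transcripts. Ackr3-201 has 3065 bases in 2 exons, and its whole coding sequence of 1086 bases lies in exon 2 (chromosome 1, 90213795 to 90216751, plus strand). Ackr3-202 has 404 bases in 3 exons and holds only the first 13 coding bases. The first 240 coding bases of Ackr3-201 (GRCm38 chr1:90213821-90214060, plus strand, 5′ to 3′) follow, with the 13 bases that Ackr3-202 also holds in capitals.
Ackr3 coding start: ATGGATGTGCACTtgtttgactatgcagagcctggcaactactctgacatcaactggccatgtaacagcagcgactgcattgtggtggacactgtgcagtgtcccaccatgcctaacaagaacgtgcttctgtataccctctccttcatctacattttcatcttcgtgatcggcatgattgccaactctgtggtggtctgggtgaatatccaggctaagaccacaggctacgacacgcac
The next 2 lines set 30 coding bases of Ackr3 (from coding position 421) beside those of Cxcr4 (from position 403). Both begin at the codons of the DRY motif, the site through which chemokine receptors engage G proteins, and the 10 bases that differ are in capitals.
Ackr3 from the DRY codons: gaccgCtaTctcTcCatCACcTacTTcacc
Cxcr4 from the DRY codons: gaccgGtaCctcGcTatTGTcCacGCcacc
The 3 codons of the motif differ in 2 bases, both at the last position of a codon, and both genes encode the motif. The other 8 differing bases lie after it.

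The lines held the markers of their labelled tissue. All 12 squamous and epithelial markers listed reached 1 TPM (a level scaled by transcript length and library) in every library, with sums of 7050 to 17200 TPM. PL12 stood apart among them. Its squamous markers were the lowest, with Krt5 at 196.62 and 222.46 TPM against 2013.44 to 4800.18 TPM in the other 6 libraries, and Trp63 at 8.8 and 8.37 TPM against 102.45 to 129.69 TPM. The simple-epithelial keratin genes Krt8 and Krt18 were highest in PL12, at 2324.35 to 2904.7 TPM. They were far apart within PLA4, where Krt8 held 1378.93 and 46.7 TPM and Krt18 467.55 and 20.44 TPM in replicates 1 and 2. The part of these markers in the differences of PL12 and PLA4 given below was not tested. Endothelial markers, which matter because endothelium is the classical site of CALCRL and RAMP2, summed to 0.63 to 3.62 TPM over 12 genes, with Tie1 and Cldn5 at 0 throughout. Immune markers summed to 8.71 to 60.6 TPM over 14 genes, with Ptprc at or below 0.01 TPM and Cd3e at 0. The fibroblast and stromal markers were uneven and are given beside Cxcl12.

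Libraries of a line were not equally alike. Levels were compared as log2(CPM + 1), where CPM is counts scaled to library size and composition. Of 18648 genes tested, 8 in PLA and 64 in PL12 stood over 1 unit apart between the libraries, against 1416 in PLA4 and 1174 in PL1. Genes under 1 CPM in both libraries cannot reach that limit, however many fold apart they are. Results that rest on PLA4 or PL1 are therefore given by library.

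Ackr3 was high in the PL lines, low but detected in PLA4 and close to the detection floor in PLA. PL1 held 86.3 and 33.2 CPM (counts scaled to library size and composition) in replicates 1 and 2, and PL12 held 25.3 and 26.3 CPM. PLA held 0.0487 and 0.0254 CPM, from 6 and 3 counts, and PLA4 held 0.387 and 0.228 CPM, from 50 and 33 counts. The families did not overlap, and the lowest PL library stood above every PLA library. Such a gap with the PLA lines lower was found for 7.19% of all genes tested. The floor of 3 counts lay between 0.0208 and 0.0614 CPM, so PLA replicate 2 was at its floor, while the 95% exact interval of PLA4 replicate 2 (0.157 to 0.321 CPM) lay above it. Averaged over lines, the PLA family stood at 0.172 ± 0.191 CPM and the PL family at 42.8 ± 24.0 CPM (SD over 2 lines), 248-fold apart.

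Ackr3 (GRCm38 chromosome 1, 90203980 to 90216751, plus strand) was the 1 member, of 7 tested, called in all 4 pairings of a PLA with a PL line, and it was lower in each. The loss of ACKR3 is the stated question, so the families may have been made to differ in this gene. The call is therefore not independent of the design. Over all 18648 genes tested, 2.00% were called in all 4 with the same sign, 0.767% as lower and 1.23% as higher in the PLA lines. The log2 fold changes of Ackr3 were -10.60 and -9.39 for PLA against PL1 and PL12, and -7.60 and -6.39 for PLA4 (largest adjusted p = 0.00371, edgeR). Without PL1 replicate 1 the differences from PL1 were -9.75 for PLA and -6.75 for PLA4, without PL1 replicate 2 that of PLA was -11.19, and without PLA replicate 1 those of PLA were -11.19 and -9.99. With each line summed to 1 profile, which makes the line the replicate, Ackr3 differed by -7.91 ± 1.37 on the log2 scale (SE), with adjusted p = 0.852 by edgeR. That test called 0% of 18861 genes and 0 of the 9 members it could test. At an unadjusted p under 0.05 it held 868 genes (4.60%), among them 3 members, Ackr3, Calcrl and Ramp3. Calcrl passed the count filter through the PL lines alone, so its place there is not read as a difference. DESeq2 on the same profiles called 348 genes and 1 member, Ackr3 (adjusted p = 1.54e-09).

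The PLA lines also differed from each other in Ackr3. PLA4 stood above PLA by 3.003 ± 0.689 on the log2 scale (SE, adjusted p = 0.0217, edgeR). That call was lost without PLA replicate 1 (adjusted p = 0.0918, edgeR), without PLA replicate 2 (0.126), without PLA4 replicate 1 (0.0834) and in limma on log2(TPM + 1) (0.0744). The difference of PL12 from PL1 was -1.21 on the same scale and did not pass (adjusted p = 0.104, edgeR). Both PL12 libraries lay below both PL1 libraries. It passed without the filter on low counts (adjusted p = 0.0387, edgeR) and not by DESeq2 (0.0523). Without PL1 replicate 1 the difference was -0.37.

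**Figure D1:**
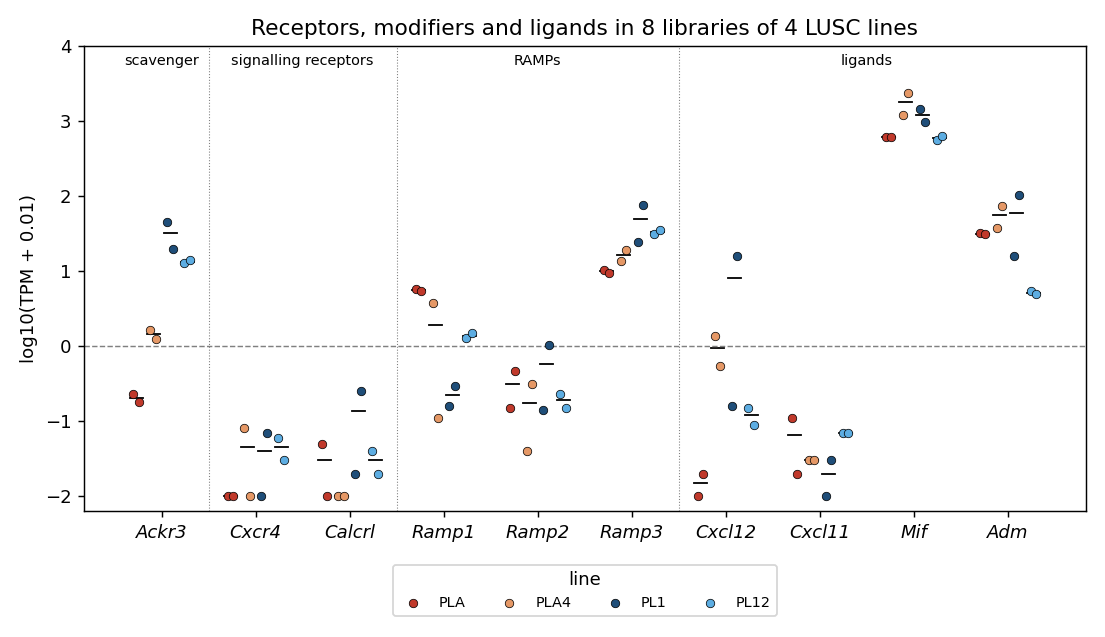
Level of each of the 10 genes as log10(TPM + 0.01), grouped by role. Each point is a library, the short bar is the mean of a line, and the dashed line marks 1 TPM. Ackr3 lies above the line in PL1 and PL12 and near or below it in PLA and PLA4, Cxcr4, Calcrl and Cxcl11 lie below it in all 8 libraries, and Mif and Adm lie above it in all 8.

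The remaining Ackr3 counts in the PLA lines differed in kind from those of the PL lines. The gene's TPM was 0.22 and 0.17 for PLA, 1.61 and 1.25 for PLA4, and 45.59, 19.63, 12.62 and 13.84 for the PL libraries. The log2 ratio of family means was -4.82 in TPM and -7.96 in CPM, a gap that arises because TPM divides each count by the length of the transcript it was assigned to. The count divided by the TPM, calibrated in each library on 406 to 505 genes with a single annotated transcript, therefore gives the mean length of the Ackr3 transcripts that the deposited estimates assumed.

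That implied length was 2914 and 2776 bases in PL1 and 2948 and 2892 bases in PL12, close to the 3065 bases of Ackr3-201. It was 504 and 408 bases in PLA and 514 and 448 bases in PLA4, close to the 404 bases of Ackr3-202, whose only coding bases are the 13 capitals printed above. The families did not overlap in it. Without the annotation, the count per TPM of Ackr3 was set against the median of genes within a fixed TPM range. That range held Ackr3 in the PL libraries but not in the PLA libraries. Relative to the PL libraries, the result was 0.0822 to 0.130 in the PLA libraries and 0.952 to 1.03 in the PL libraries. It rests on the same counts and TPM, so it is not a separate check.

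Divided between the 2 transcripts, 99.0% to 99.8% of Ackr3 counts in the PL libraries belonged to the long transcript. The share was 33.2% and 2.15% in PLA and 34.1% and 17.6% in PLA4. The long transcript, the one that encodes the receptor, came to 43.0, 17.5, 12.1 and 12.9 TPM in the PL libraries and to 0.00831, 0.000284, 0.0668 and 0.0207 TPM in the PLA libraries. The short transcript overlapped between the families, at 0.17 to 1.54 TPM in the PLA libraries and 0.556 to 2.59 TPM in the PL libraries. The log2 ratio of family means was thus -9.80 for the long and -0.97 for the short transcript. These are descriptions with no test, and in PLA the estimates rest on 6 and 3 counts. In the PL libraries, the small share given to the short transcript depends on the calibration: genes of 350 to 500 bases stood at 1.04 times their annotated length in PL12 replicate 1 and at 1.0 to 1.01 times in the other libraries. Gene-level estimates do not show which bases the reads covered, so the exons they came from cannot be told apart.

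**Figure D2:**
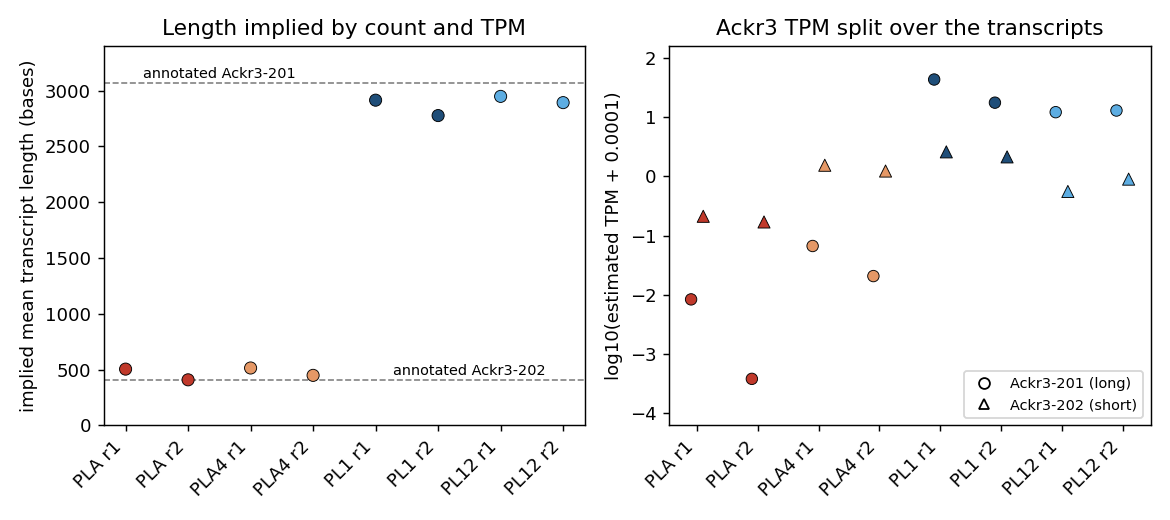
Left, mean transcript length of Ackr3 in bases implied by count and TPM in each library, with the annotated lengths of both transcripts as dashed lines. Right, estimated level of the long (circles) and short (triangles) transcript as log10(TPM + 0.0001), in which the long transcript separates PLA from PL libraries and the short transcript overlaps.

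The signalling receptors Cxcr4 and Calcrl were present at no more than a trace. Cxcr4 (chromosome 1, 128588199 to 128592293, minus strand) had 18 counts over all 8 libraries. PLA had 0 counts in both libraries, PLA4 had 10 and 0, PL1 had 0 and 3, and PL12 had 3 and 2. Its highest level was 0.07 TPM, in PLA4 replicate 1, and 7 of 8 libraries were at or under the floor of 3 counts. No line stood apart, and the gene was too low to be tested. In the deepest library, PLA4 replicate 2, its 0 counts have a 95% exact interval of up to 0.0255 CPM. The floor of 3 counts there was 0.0208 CPM.

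Calcrl (chromosome 2, 84330626 to 84425411, minus strand), which encodes the receptor core for adrenomedullin and CGRP, was also at or near the floor in all but 1 library. The 4 PLA libraries had 1 count each. PL1 had 2 and 63 counts, and PL12 had 4 in each library. Of the 77 counts in all, most thus came from PL1 replicate 2, where Calcrl reached 0.24 TPM, its highest value. The families did not overlap, but the gap lay between 1 count in each PLA library and 2 counts in PL1 replicate 1. That PL1 library, at 0.023 CPM, was itself under its floor of 0.0345 CPM. Its 95% exact interval (0.00279 to 0.0831 CPM) overlapped that of PLA replicate 2 (0.000214 to 0.0472 CPM). The gap is therefore not read as a difference. Families without overlap made up 15.7% of all genes tested in the 8 libraries, but Calcrl itself was too low for that test. Calcrl is given as values only, since on summed profiles it passed the count filter through the PL lines alone. Calcrl and Cxcr4 together made up 0 to 0.30 TPM per library.

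Cxcr3, the signalling receptor for CXCL11, had 14 counts in all, and Cxcr2, which binds MIF, had 38. Calcr, the calcitonin receptor that pairs with RAMPs to bind amylin, had 0 counts in every library. The floor of 3 counts, for counting error only, lay at 0.0208 to 0.0614 CPM. The surface proteins through which MIF binds without a chemokine receptor were present. Cd44 stood at 262 to 663 TPM. Cd74, its partner and the MIF-binding chain, stood at 37.36 and 35.6 TPM in PLA and at 0.05 to 1.85 TPM in the other 6 libraries. Cd74 fell by 7.10 on the log2 scale from PLA to PLA4 (adjusted p = 0.0061, edgeR, and at most 0.0452 with any library left out). Of the myeloid markers listed, Itgam moved with it, at 17.21 and 16.07 TPM in PLA and 0.05 to 0.37 TPM elsewhere. Cd68 was at 40.98 and 38.99 TPM in PLA and 2.63 to 20.75 TPM elsewhere. Other myeloid markers did not follow. S100a8 was at 0 and 0.04 TPM in PLA and 2.72 to 13.8 TPM elsewhere, and Adgre1 and Lyz2 were at 0 in PLA. Csf1r was at 1.42 and 2.13 TPM in PLA and 5.47 and 5.48 TPM in PL12. Ly6g was at 0.26 and 0.35 TPM in PLA and 4.46 and 3.22 TPM in PL12. The 14 immune markers summed to 60.6 and 58.6 TPM in PLA and 8.71 to 31.0 TPM elsewhere, while Ptprc, which marks leukocytes, and Cd3e were at 0 in PLA. Their part in the Cd74 level was not tested.

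The RAMPs were present without that receptor core, and Ramp3 led in every library. Ramp3 (chromosome 11, 6658521 to 6677475, plus strand) held 10.39 and 9.34 TPM in PLA, 13.73 and 18.86 TPM in PLA4, 24.34 and 75.26 TPM in PL1, and 31.10 and 35.02 TPM in PL12. All 4 PLA libraries lay below all 4 PL libraries. The PLA family averaged 9.41 ± 3.39 CPM and the PL family 29.8 ± 7.56 CPM (SD over 2 lines), 3.16-fold apart. Families without overlap were found for 7.19% of all genes tested with the PLA lines lower, and for 8.56% with them higher.

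Ramp3 was lower in PLA than in PL1 (-2.33 ± 0.480, adjusted p = 0.0167, edgeR) and than in PL12 (-1.80 ± 0.472, adjusted p = 0.0264). For PLA4 the differences were -1.57 from PL1 (adjusted p = 0.0865, edgeR) and -1.05 from PL12 (adjusted p = 0.122), and they did not pass. Without PL1 replicate 2 the differences from PL1 were -1.42 for PLA (adjusted p = 0.0113, edgeR) and -0.60 for PLA4 (adjusted p = 0.185). On summed profiles it was -1.72 ± 0.462 (SE, adjusted p = 0.852, edgeR). The sign was the same in all 4 comparisons in each of the 16 alternative analyses that kept the 4 lines. All 4 passed in 2 of these, without PL1 replicate 1 and without PL1 replicate 1 and PLA4 replicate 2. Without PLA replicate 1 or 2, neither PLA comparison passed (adjusted p = 0.103 and 0.116 against PL1, 0.113 and 0.134 against PL12, edgeR). Without PL12 replicate 1 or 2 the comparison with PL12 was lost as well (0.0912 and 0.118). Within families the neighbours did not differ beyond their spread (PL12 against PL1, adjusted p = 0.442, and PLA4 against PLA, adjusted p = 0.262, edgeR).

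Ramp1 (chromosome 1, 91179822 to 91225196, plus strand) was split within PLA4. It held 5.83 and 5.41 TPM in PLA, 3.73 and 0.10 TPM in PLA4, 0.15 and 0.28 TPM in PL1, and 1.27 and 1.48 TPM in PL12. The PLA4 libraries were 49.7-fold apart in CPM, and one of them resembled PLA and the other PL1. The comparison of PLA with PL1 passed narrowly (5.47 ± 1.63, adjusted p = 0.0499, edgeR). It was lost without either library of PLA (0.152 and 0.147), of PL1 (0.182 and 0.122) or of PL12 (0.0989 and 0.0985), and also with DESeq2 size factors (0.0503) and with the replicate number of the labels as a block (0.0823). Without PL1 replicate 2 its value was 6.22. PLA4 against PL12 was 0.51 with all libraries (adjusted p = 0.791, edgeR) and -4.13 without PLA4 replicate 1 (adjusted p = 0.00712).

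Ramp2 (chromosome 11, 101246028 to 101259546, plus strand) was nearly silent, at 0.03 to 1.01 TPM, and was called in none of the 6 comparisons of lines. Its estimated counts, 3.53 to 89.93, were fractional, and the gene has 8 annotated transcripts. Ramp3 made up 61.4% to 98.9% of the summed RAMP TPM. Ramp1 made up 35.6% in both PLA libraries and 21.3% in PLA4 replicate 1, and 0.366% to 4.04% in the other 5 libraries. The mix was thus nearly pure Ramp3 in both PL lines, and not in PLA.

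**Figure D3:**
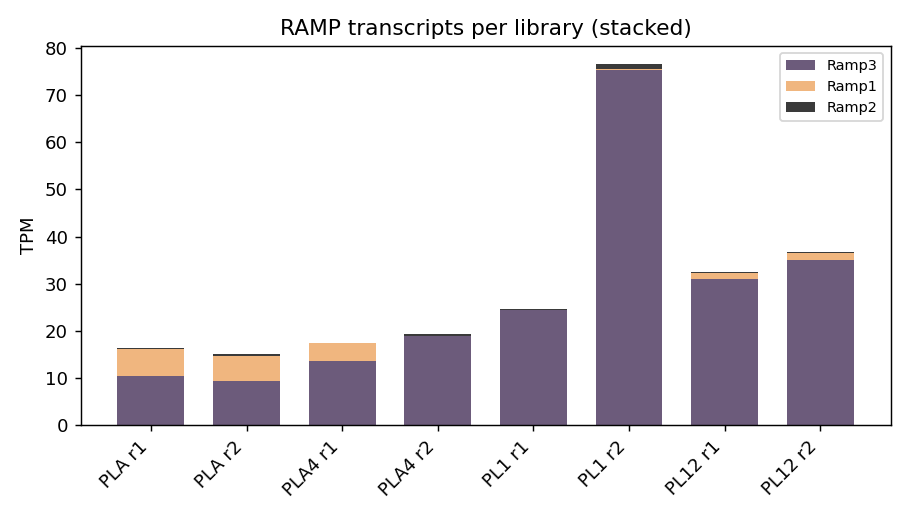
TPM of Ramp3, Ramp1 and Ramp2 in each of the 8 libraries, stacked from 0. Ramp3 is the main part of every bar and is highest in PL1 replicate 2, at 75.26 TPM, and Ramp1 is visible in both PLA libraries and in PLA4 replicate 1.

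Among the ligands, Mif was by far the most abundant. Mif (chromosome 10, 75859353 to 75860240, minus strand) held 619.35 and 608.88 TPM in PLA, 1219.34 and 2326.05 TPM in PLA4, 1456.23 and 957.87 TPM in PL1, and 558.0 and 640.14 TPM in PL12. It ranked 144th of all genes by mean TPM and made up 88.9% to 99.2% of the TPM of the 4 ligands. Its order followed no family: PLA4 and PL1 were high, and PLA and PL12 were low.

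Mif was higher in PLA4 than in PL12 by 1.66 ± 0.366 and than in PLA by 1.58 ± 0.365 on the log2 scale (SE, adjusted p = 0.0157 and 0.0223, edgeR). The first was lost without PL12 replicate 1 or 2 (0.110 and 0.0607), and the second without PLA replicate 1 or 2 (0.121 and 0.130) or PLA4 replicate 2 (0.0590). PL1 was not called apart from PLA (adjusted p = 0.0789, edgeR) or from PL12 (0.0721), but both passed by DESeq2 (0.0171 and 0.0157). PLA4 and PL1 did not differ beyond their spread (adjusted p = 0.348, edgeR), nor did PLA and PL12 (adjusted p = 0.881). Mif counts were partly fractional, as estimated counts are where a read fits more than 1 transcript or gene, and the level is uncertain to that degree.

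Adm (chromosome 7, 110627661 to 110629820, plus strand), the precursor of adrenomedullin, was made by every line. It held 31.97 and 31.21 TPM in PLA, 37.01 and 73.62 TPM in PLA4, 15.95 and 103.46 TPM in PL1, and 5.41 and 4.89 TPM in PL12. PL12 was the low line, below every library of the other 3. In PL1 the libraries were 6.07-fold apart, and they enclosed those of PLA and PLA4. Adm was thus produced in lines that had at most 0.24 TPM of Calcrl.

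PL12 differed from PL1 by -3.47 ± 0.822 on the log2 scale (SE, adjusted p = 0.0285, edgeR). By edgeR, PLA stood above PL12 by 2.58 ± 0.793 (adjusted p = 0.0438) and PLA4 by 3.39 ± 0.819 (adjusted p = 0.0211). Without PL1 replicate 2 the difference between the PL lines was -1.64 (adjusted p = 0.0346, edgeR), and without PL1 replicate 1 it was -4.26 (adjusted p = 0.00363). Each of the 3 calls was lost with some libraries left out. Without PL12 replicate 1 or 2 the adjusted p was 0.161 and 0.165 for PL1, 0.179 and 0.193 for PLA, and 0.123 and 0.127 for PLA4. Without PLA replicate 1 or 2 it was 0.0648 in both cases for PL1, and 0.142 and 0.134 for PLA. Without PLA4 replicate 2 it was 0.0521 for PLA and 0.0598 for PLA4, and in limma on log2(TPM + 1) it was 0.0512 for PLA. With replicate numbers crossed between lines as a block it was 0.0623 for PLA and 0.0525 for PL1. For PLA against PL1 the difference in Adm was -0.89 (adjusted p = 0.404, edgeR), and the sign turned to 0.88 without PL1 replicate 2 (adjusted p = 0.155). The difference of PLA4 from PL1 likewise moved from -0.08 to 1.75 without that library.

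Cxcl12, the shared ligand of ACKR3 and CXCR4 (chromosome 6, 117168535 to 117181367, plus strand), was carried by a single library. PLA had 1 count in each library, PLA4 had 230 and 99, PL1 had 22 and 2679, and PL12 had 9 and 13. Per length, PLA stood at 0 and 0.01 TPM, PLA4 at 1.36 and 0.53 TPM, PL1 at 0.15 and 15.87 TPM, and PL12 at 0.14 and 0.08 TPM. The PL1 libraries were 93.3-fold apart in CPM, further than any other pair among the members tested.

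The comparison of PLA with PL1 was called (-10.31 ± 2.43, adjusted p = 0.025, edgeR), with PLA at 1 count per library, so its size depends on the fit. Without PL1 replicate 2 it was -4.80 (adjusted p = 0.0155, edgeR), and without PL1 replicate 1 it was -11.29 (0.00243). It was lost without PLA replicate 1 or 2 (0.154 and 0.151), without PL12 replicate 1 or 2 (0.0588 and 0.0586), with the replicate block (0.0541) and in limma on log2(TPM + 1) (0.191). The difference of PLA4 from PL1 turned from -3.28 (adjusted p = 0.234, edgeR) to 2.28 without PL1 replicate 2. With PL1 replicate 2 set aside, the highest Cxcl12 was that of PLA4.

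Some stromal markers were highest in the same library as Cxcl12, and others were not. The sum over 12 fibroblast and stromal markers was 92.5 TPM in PL1 replicate 2 and 3.37 TPM in PL1 replicate 1. It was 12.2 and 7.98 TPM in PLA4, and 0.41 to 0.56 TPM in PLA and PL12. Col1a1, a chain of fibrillar collagen, reached 68.97 TPM in PL1 replicate 2 and 0.11 to 1.11 TPM in the others, and Dcn reached 10.37 TPM. Col3a1 (2.73 TPM), Pdgfrb (1.26 TPM) and Fap (0.53 TPM) were also highest in PL1 replicate 2. Postn was highest in PLA4 replicate 1, at 9.3 TPM, against 7.31 TPM in PL1 replicate 2. Pdgfra was highest in PLA4 replicate 2, at 1.92 TPM, against 1.26 TPM in PL1 replicate 2. Col1a2, at 0.06 TPM, and Lum, at 0.01 TPM, were near 0 in PL1 replicate 2, and Thy1, Dpt and Tcf21 were at 0. The part of stromal markers in the Cxcl12 level was not tested, and fewer cells of a type and less RNA per cell cannot be told apart in bulk libraries.

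**Figure D4:**
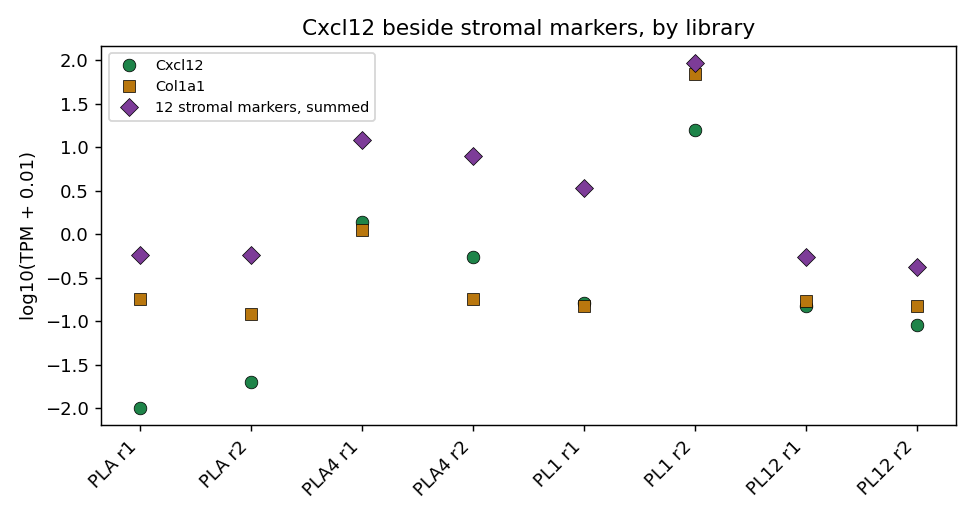
Level of Cxcl12 (circles), Col1a1 (squares) and the sum of 12 fibroblast and stromal markers (diamonds) in each library, as log10(TPM + 0.01). All 3 are highest in PL1 replicate 2, at 15.87, 68.97 and 92.5 TPM.

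Cxcl11 (chromosome 5, 92359544 to 92365485, minus strand), an interferon-induced chemokine, was not detected beyond a trace. It had 0 to 19 counts and at most 0.1 TPM, and the annotation classes it as a polymorphic pseudogene in the reference strain. It was too low to be tested in the 8 libraries.

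Between the lines, 4 of the 7 members tested were called for PLA against PL1, where 27.3% of all genes were, and 3 for PLA against PL12, where 37.7% were. For PLA4, 1 was called against PL1 (all genes, 8.55%) and 3 against PL12 (36.0%). Within families, 1 was called between PL12 and PL1 (23.7%) and 2 between PLA4 and PLA (29.0%). These 6 comparisons share libraries and are not independent. Ackr3 was called in all 4 family comparisons in 16 of the 16 alternatives that kept the 4 lines, and in both comparisons left in each of the 4 that left out a line.

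**Figure D5:**
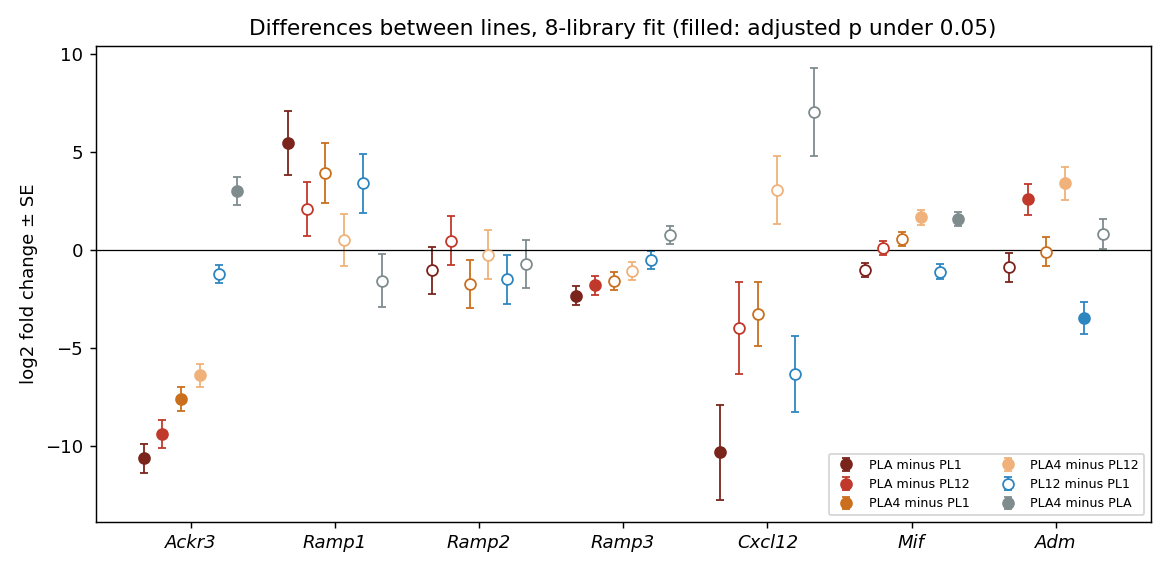
Log2 fold change of the 7 members tested in the 6 comparisons of lines, with SE as error bars, and filled points where adjusted p passed 0.05. Of the 7, Ackr3 alone has filled points in all 4 comparisons of a PLA with a PL line, and Ramp3 has the same sign in all 4 without passing for PLA4.

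The wider pathway was read from 6 lists of 91 genes, of which 66 could be tested. In all, 1 of the 66 was called in the same direction in all 4 family comparisons, against 2.00% of all genes. It was Cpe, carboxypeptidase E, which trims peptide precursors. Cpe held 215.7 and 201.33 TPM in PLA, 62.82 and 104.42 TPM in PLA4, 41.23 and 28.65 TPM in PL1, and 44.4 and 43.62 TPM in PL12. Every PLA library was above every PL library, which held for 8.56% of all genes tested. The smallest of the 4 log2 fold changes was 0.84 (largest adjusted p = 0.0332, edgeR). The call held in 9 of the 16 alternatives that kept the 4 lines. It was lost without any of 6 libraries, both of PLA, both of PL12, PLA4 replicate 2 and PL1 replicate 2, and with the replicate block, after which 0 genes of the lists were called.

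Among 11 genes for processing and clearance of the ligands, 9 were tested, 1 was called and the median log2 fold change on summed profiles was -0.55, against 0.04 over all genes. Pam, the enzyme that amidates adrenomedullin into its active form, stood at 48.25 and 51.04 TPM in PLA, 66.28 and 72.35 TPM in PLA4, 104.5 and 168.44 TPM in PL1, and 100.24 and 91.02 TPM in PL12. It had 1 sign in all 4 comparisons and did not pass them all (largest adjusted p = 0.0894, edgeR), but did by DESeq2. Ide, a peptide-degrading protease, averaged 48.7 TPM and Cpm, carboxypeptidase M, 9.50 TPM. Dpp4, the protease that inactivates CXCL12, had 51 counts in all.

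Of 12 further ligands of these receptors, 6 were tested and 0 called (edgeR), none at an unadjusted p under 0.05 in all 4 comparisons and none by DESeq2. The median log2 fold change was 0.71. Hmgb1, which forms a complex with CXCL12, averaged 400 TPM. Ddt, a relative of MIF, averaged 60.0 TPM, and Cxcl10, a CXCR3 ligand, 9.52 TPM. Adm2, a second adrenomedullin-family peptide, averaged 3.30 TPM, and Calca, which encodes CGRP, had 0 counts.

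Of 10 genes listed as further receptors for the same ligands, 5 were tested and 0 called by edgeR, by DESeq2 or at unadjusted p under 0.05, with a median of 0.00. Gpr107 averaged 31.8 TPM, and whether its product binds any of these ligands was not tested. Gpr182, an atypical receptor gene, averaged 0.131 TPM. Of 20 other chemokine receptors, 8 were tested and 0 called by edgeR or DESeq2, with a median of 1.33, and 16 stayed below 1 TPM in all libraries. Pitpnm3 led them at 15.1 TPM on average and was the 1 gene at an unadjusted p under 0.05 in all 4 comparisons (largest adjusted p = 0.0961, edgeR). It was followed by the atypical receptor gene Ccrl2 at 1.94 TPM, Cxcr5 at 0.741 TPM and Ccr2 at 0.431 TPM. Cxcr1 and Ccr8 had 0 counts.

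Of 18 genes for receptor coupling and uptake, 15 reached 1 TPM in all libraries. All 18 were tested and 0 were called by edgeR, by DESeq2 or at unadjusted p under 0.05, with a median of -0.13. Gnas, the stimulatory G protein subunit, averaged 752 TPM, the recycling GTPase gene Rab11a 369 TPM, Gnai2 214 TPM and the clathrin chain Cltc 163 TPM. Arrb2, an arrestin recruited by ACKR3, stood at 8.62, 8.40, 8.94 and 11.6 TPM in PLA, PLA4, PL1 and PL12. Grk3, a receptor kinase gene, was uneven, with 10.91 and 12.26 TPM in PLA, 0.07 and 0.04 TPM in PLA4, 0.07 and 1.45 TPM in PL1, and 2.28 and 2.05 TPM in PL12. The hypoxia list was included because hypoxia is known to induce Adm. All 20 of its genes were tested and 0 called by edgeR, 2 (Higd1a and Mxi1) were at unadjusted p under 0.05 in all 4 comparisons, and 1 (Higd1a) was called by DESeq2. Its median was -0.23. Ldha averaged 1630 TPM, Pgk1 971 TPM, Eno1 286 TPM and Vegfa 215 TPM. Within PL1, whose libraries were far apart in Adm, Egln3 held 10.8 and 48.0 TPM, Ero1a 33.96 and 227.32 TPM and Ndrg1 22.13 and 74.39 TPM. Ldha (2374.62 and 2449.51 TPM), Pgk1 (1293.25 and 1399.52 TPM) and Vegfa (202.68 and 229.49 TPM) were closer together there. The part of hypoxia in the Adm level was not tested.

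The genes most like each member over the 8 libraries were ranked by Pearson r on log2(CPM + 1), among 11000 genes. The libraries come in pairs from 4 lines, so r describes these libraries only. Ackr3 was nearest to Farsb (0.993), a tRNA synthetase subunit, to Nrn1 (0.982) and to Otud6b (0.979). Nrn1 held 0.00812, 0, 0.356 and 0.312 CPM in the PLA libraries and 6.40, 4.70, 2.74 and 2.25 CPM in the PL libraries. Ramp3 was nearest to Shmt1 (0.979), Pam (0.967) and Jmjd6 (0.961), the last of which is a nuclear hydroxylase.

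Ramp1 was nearest to Acp5 (0.997), Dennd6b (0.993) and Pcdh1 (0.987). Acp5, tartrate-resistant acid phosphatase, showed the same gap within PLA4, with 18.8 and 0.0208 CPM. Cxcl12 was nearest to Fbn1 (0.997), Col1a1 (0.988) and Col5a1 (0.983), all genes of the extracellular matrix. Mif was nearest to Nosip (0.986), Siva1 (0.984) and Rbm42 (0.983). Adm was nearest to Pyurf (0.991), Wdfy1 (0.979) and Fam50a (0.975).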

How the data were processed

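Total RNA of 8 libraries was copied with a SMARTer PCR kit and prepared with Nextera XT, per the labels' protocols. The authors deposited expected counts (estimates, whole or fractional) and TPM (scaled by transcript length to 1 common total) per gene, per the file headers. FastQC, STAR, RSEM and DESeq2 were used on GRCm38, per the submitters' processing notes, and versions and annotation release are not given in the sources used here. Of the deposited expected counts, 14.2% were not whole, and they were rounded before testing.

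Genes passing filterByExpr (minimum count 10, minimum total 15) were scaled by TMM and fitted in R 4.3.3 by the quasi-likelihood F test of edgeR 4.0.16 (limma 3.58.1 loaded). The fit had a mean for each line, leaving 4 degrees of freedom (18648 genes), or used counts summed by line (18861 genes). Adjusted p is by Benjamini-Hochberg over all genes tested, with a threshold of 0.05. All p-values in the text come from these models unless DESeq2 (1.42.0) or limma is named. SE comes from the quasi-likelihood F statistic. CPM uses TMM factors, floors are 3 counts, and intervals are 95% exact binomial (Clopper-Pearson) intervals for counting error only.

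Transcript lengths, coordinates and sequences are from GENCODE mouse release 21, which matched 54435 gene identifiers with their version. The implied length is count over TPM, calibrated per library on single-transcript genes with at least 500 counts and 20 TPM. Of these genes, 91.1% to 94.6% came within 2% of their annotated length.

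The members, lists and tests were chosen with earlier results of these data known. Named genes were all members, and from each list the genes called in all 4 PLA against PL comparisons, the 4 highest by mean TPM and receptors of a member ligand at 0 counts. Cxcr3, Cxcr2, Calca, Dpp4, Arrb1, Arrb2, Grk3, Egln3, Ero1a, Ndrg1, Higd1a, Mxi1, Cxcr1 and Ccr8 were named beyond that rule after their values were seen. The 3 most alike genes had a mean of at least 5 CPM in some line. Alternatives changed scaling, filter, tool, unit, replicate block, libraries or lines.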

Additional observations from a re-analysis of the deposited data

How the results depend on the processing

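Over 774 recalculations of single members, 615 kept direction and call, 76 gained a call, 44 lost one and 39 changed sign. Ackr3 changed sign in 0 of 109. The count of members called in all 4 PLA against PL comparisons was 1, and 1 to 2 with any library left out. It was 3 without the line PLA4 and 3 without the line PL1, where 2 comparisons remain. Leaving out PL1 replicate 1 with PLA4 replicate 2 gave 3 for these members, 8 for PL12 against PL1, 6 for PLA4 against PLA and 10 pathway genes. Leaving out PL1 replicate 2 with PLA4 replicate 1 gave 2, 5, 6 and 9. In both cases the spread comes only from the close pairs of PLA and PL12, with the lone libraries assumed to vary alike. Between PL12 and PL1 the count of members was 1, with 0 to 4 over single libraries left out, 4 without the filter and 4 by DESeq2. Between PLA4 and PLA it was 2, with 0 to 4 over libraries left out and 1 by limma. On summed profiles it was 0, with 0 throughout the libraries left out, and 1 by DESeq2.

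Pathway genes called in all 4 comparisons numbered 1, with 0 to 4 over libraries left out. They were 2 without the filter, 3 by DESeq2, 2 by limma, 0 at a log2 minimum of 1, 0 without the line PLA, 17 without PLA4, 14 without PL1 and 0 without PL12. The cause was not tested.

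The replicate block, with labels' numbers as a term, gave 0 pathway genes and left the other counts of members at 1, 1 and 2. Replicate differences correlated at -0.194 to 0.015 between lines. These values cannot decide whether equal numbers pair the libraries, since few genes differed within PLA and PL12 (8 and 64 over 1 unit on log2(CPM + 1)). The labels do not say either. A crossed pairing, chosen after seeing the data, gave 0 members for PL12 against PL1 and left the other counts as they were.

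Signs that turned were as follows. By limma, Ramp1 for PLA4 against PL12 became -0.06 and Adm for PLA4 against PL1 0.34. With the replicate block, Ramp2 for PLA against PL12 became -0.06 and Adm for PLA4 against PL1 0.11, and with the crossed block Ramp1 for PLA4 against PL12 became -0.25 and Adm for PLA4 against PL1 0.1. Without PL1 replicate 2 and PLA4 replicate 1, Ramp1 for PLA4 against PL12 was -4.15. Ramp2 was then 0.83 and 0.93 for PLA and PLA4 against PL1, 0.61 for PLA4 against PL12, 0.32 for PL12 against PL1, 0.1 for PLA4 against PLA and 0.7 on summed profiles. Ramp3 was 0.43 for PL12 against PL1. Cxcl12 was 1.43 for PLA4 against PL1 and 0.8 on summed profiles, and Adm 0.93 and 2.14 for PLA and PLA4 against PL1. Without PL1 replicate 1 and PLA4 replicate 2, Adm on summed profiles was -0.62. With any single library left out, signs also turned within these lowest and highest values. Ramp1 ran from -0.74 to 4.89 for PLA4 against PL1 and from -4.13 to 1.48 for PLA4 against PL12. Ramp2 ran from -2.4 to 0.77 and from -3.84 to 0.12 for PLA and PLA4 against PL1, from -0.93 to 1.08 and from -2.34 to 0.58 for PLA and PLA4 against PL12, from -2.29 to 0.36 for PL12 against PL1, from -2.75 to 0.67 for PLA4 against PLA, and from -1.49 to 0.38 on summed profiles. Ramp3 ran from -1.1 to 0.45 for PL12 against PL1. Cxcl12 ran from -4.26 to 2.28 for PLA4 against PL1 and from -4.3 to 1.6 on summed profiles. Mif ran from -0.15 to 0.37 for PLA against PL12. Adm ran from -1.66 to 0.88 and from -0.86 to 1.75 for PLA and PLA4 against PL1, and from -0.26 to 2 on summed profiles. Depth limits Cxcr4, Calcrl and Cxcl11, which had under 20 counts in most libraries, so small differences in them were not detectable.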

Other observations

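Several genes of the wider lists set PLA apart from its companion line PLA4, and were chosen here after their values were seen. Ccr2, the receptor for monocyte-attracting chemokines, held 1.71 and 1.67 TPM in PLA and 0 to 0.02 TPM in the other 6 libraries. It is given as values only, since it passed the count filter through PLA alone. Vegfa, the angiogenic factor, held 465.16 and 473.76 TPM in PLA and 101.33 and 37.39 TPM in PLA4, with the PL libraries between them and PLA (adjusted p = 0.00693, edgeR, and 0.0502 without PLA replicate 1 or without PLA replicate 2). Cxcl10 averaged 23.5 TPM in PLA and 4.84 TPM in PLA4, a difference that did not pass (adjusted p = 0.126, edgeR). Of the immune markers, Cd68 was at 40.98 and 38.99 TPM in PLA and at 2.63 to 20.75 TPM elsewhere. S100a8 went the other way, at 0 and 0.04 TPM in PLA and 2.72 to 13.8 TPM elsewhere. The part of such markers in these values was not tested.

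The arrestin gene Arrb1 split the lines differently from Arrb2. It held 2.27 and 2.64 TPM in PLA, 10.79 and 5.52 TPM in PLA4, 7.80 and 11.86 TPM in PL1, and 2.57 and 3.20 TPM in PL12. PLA and PL12 were thus low, and PLA4 and PL1 high, the same high and low lines as for Mif. Arrb1 was higher in PLA4 than in PLA by 1.85 (adjusted p = 0.0114, edgeR), and PL12 differed from PL1 by -1.64 (adjusted p = 0.019). The first call was lost without PLA replicate 1 or 2 (0.0882 and 0.0756), and the second for Arrb1 without PLA replicate 1 or 2 (0.0513 and 0.0512), PL1 replicate 2 (0.0608), or either PL12 library (0.122).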
